A study of Homo sapiens with 24 samples.

Results

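The first 3 days of exposure to LLY-283 were examined in HSJD-DIPG-007, an established line of diffuse midline glioma (DMG), a childhood brainstem tumour, by comparing the LLY-283 and vehicle libraries of days 1, 2 and 3. These are 6 of the 24 RNA-sequencing libraries of the series (12 for each treatment), chosen by their labelled treatment and day, with 1 library for each treatment on each of the 3 days. The line carries H3F3A K27M, ACVR1 R206H and a PIK3CA missense change in both groups and was grown as spheroids. The treated group received a single dose of LLY-283 at its GI40, a concentration named for growth inhibition of 40%, and the control group received vehicle. The comparison asks which transcripts had already moved before day 5, the day with 3 libraries for each treatment. Days 0 and 5, with 3 libraries for each treatment, are given beside it. The study describes libraries of the same treatment and day as technical repeats of a single line. Most p-values below therefore measure only the spread between such repeats. The test over days 1 to 3 together has no repeats. Its spread is how the treatment difference varies between the 3 days, so a difference that grows with the day adds to it.

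PRMT5 is the main enzyme that places symmetric dimethylation on arginine residues, and it works in a complex with WDR77, its constant partner. Among its best known substrates are the Sm proteins, which form the core of the small nuclear ribonucleoproteins (snRNPs) of the spliceosome, and loss of its activity is known for retained introns, altered splicing and slower cycling. LLY-283 occupies the pocket of PRMT5 that binds S-adenosylmethionine, the methyl donor. Libraries were made from polyadenylated RNA, so what was measured is the level of polyadenylated transcript per gene, and neither splicing nor methylation was read.

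The 6 libraries held 16366670 to 23190369 counts, and levels are given as CPM (counts scaled to a common library size) after TMM scaling, with factors between 0.982 and 1.01. Of 58676 gene identifiers, 17240 passed the filter on low counts and were tested. The markers written for this lineage were abundant: 7 of 8 stood at 1 CPM or more in each library, among them OLIG2 at 271.6 to 371.6 CPM, whereas SOX10 was near 0. The LLY-283 library of day 2 stood apart by traces of fibroblast genes. FN1, encoding fibronectin, measured 26.1 CPM there against 2.25 to 3.18 CPM in the other 5 libraries, and COL1A1, a chain of type I collagen, 31.6 against 6.82 to 9.73 CPM. Summed over 18 fibroblast markers, vehicle measured 558.5, 516.1 and 489.0 CPM on days 1, 2 and 3 and LLY-283 544.9, 629.0 and 660.4 CPM. At day 3 FN1 was 3.13 CPM and COL1A1 9.21 CPM under LLY-283. The largest differences in that day's sum were POSTN, at 97.35 CPM against 33.91 CPM in vehicle, and COL5A2, at 252.9 against 193.0 CPM. Only PDGFRB and COL3A1 were lower. Repeat 3 of vehicle day 5 summed to 696.9 CPM, against 501.3 and 520.6 CPM in repeats 1 and 2. That library is used in the day 5 values below. It also enters the estimate of spread behind the single-day calls of days 1, 2 and 3. Summed macrophage markers were 0.263 to 1.14 CPM and endothelial markers 4.62 to 7.75 CPM. The 6 neuron markers, mainly SYT1 and GAD1, summed to 114.8, 110.1 and 107.4 CPM in vehicle and 124.8, 115.7 and 139.8 CPM under LLY-283 on days 1, 2 and 3. The part of these traces in the day 2 values was not tested. In bulk RNA, fewer cells of a type and less RNA per cell cannot be told apart.

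Tested day by day, a handful of transcripts were called at day 2 and far more at day 3, in counts that moved with the estimate of spread. With day as a block, only 3 of 17240 genes (0.0174%) were called over the 3 days together at an adjusted p under 0.05 (edgeR quasi-likelihood test with Benjamini-Hochberg adjustment): PRPF4B and CREBZF were higher and CXCR5 was lower under LLY-283. At an unadjusted p under 0.05 there were 2901 genes (16.8%), and DESeq2 called 23. Leaving out day 1, 2 or 3 gave 15, 290 and 906 called genes. Those fits hold fewer libraries and leave even less from which to estimate the spread. In a model of 18 libraries that borrows its estimate of spread from the repeats of days 0 and 5, no gene (0%) was called at day 1, where 1300 genes (7.54%) had an unadjusted p under 0.05 and DESeq2 called 3. At day 2, 8 genes (0.0464%) were called, and at day 3, 2437 (14.1%), of which 1214 were higher (7.04%) and 1223 lower (7.09%). The model takes the single libraries of days 1, 2 and 3 to vary as the repeats do, and its day 3 count fell to 373 when the day 7 libraries were added to the estimate of spread and to 1434 with DESeq2. The same model averaged over the 3 days called 2347 genes, 974 higher and 1373 lower. Day 7 was left out of that model because, in earlier results, its repeat 2 libraries lay nearer the opposite treatment. Their part in the fall of the day 3 count was not tested. In the libraries of day 0, compared on their own, 7 genes (0.0406%) were called. Among the genes called at day 3 the median size of the log2 difference was 0.36, and only 131 higher and 21 lower genes exceeded 1 in size.

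**Figure D1:**
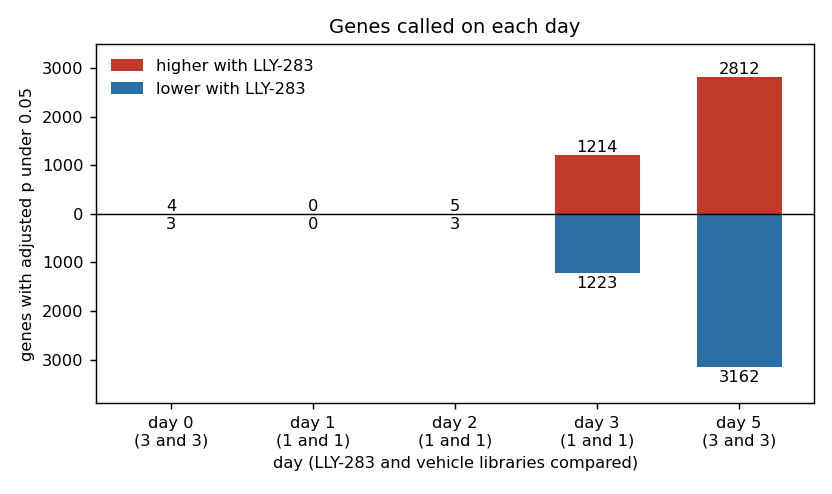
Genes called higher (red) or lower (blue) under LLY-283 at an adjusted p under 0.05 (vertical axis, number of genes) on each day (horizontal axis). Days 1, 2 and 3 have 1 library per treatment and share 1 model, and days 0 and 5 have 3 per treatment and their own tests. Lower genes are drawn downward. The bars are too short to see at days 0, 1 and 2 (7, 0 and 8 genes), reach 1214 higher and 1223 lower genes at day 3, and are tallest at day 5.

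PRPF4B and CREBZF differed by nearly the same amount on each day. The test that picked them favours such genes, since its spread is the variation of the difference between days. The likeness is therefore not a separate result. PRPF4B (ENSG00000112739, GRCh38 chr6:4021267-4064983) encodes a kinase of the spliceosome that phosphorylates other splicing factors. It measured 210.0, 205.8 and 213.7 CPM in vehicle on days 1, 2 and 3 and 265.7, 266.9 and 288.9 CPM under LLY-283, so the lowest LLY-283 library lay above the highest vehicle library. Its fitted log2 difference was 0.38 ± 0.045 (SE; edgeR, adjusted p = 0.0397). The 3 daily differences had an SD of 0.048. CREBZF (ENSG00000137504, GRCh38 chr11:85657742-85682908) encodes a bZIP transcription regulator. Vehicle libraries held 67.4, 77.3 and 78.8 CPM of it and LLY-283 libraries 92.8, 100.5 and 107.2 CPM, again without overlap, for a log2 difference of 0.43 ± 0.052 (SE; edgeR, adjusted p = 0.0397). Each of the pair was called in 8 of 11 other analyses, with adjusted p between 5.06e-13 and 0.205 for PRPF4B and between 7.51e-11 and 0.356 for CREBZF, and was not called without the day block, without the filter on low counts or without day 1. Both were called without day 2, the day with the fibroblast traces. Across all genes, groups that did not overlap were found with LLY-283 above for 1389 genes (8.06%) and with LLY-283 below for 1806 (10.5%).

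CXCR5, a chemokine receptor gene (ENSG00000160683, GRCh38 chr11:118883892-118897787), was listed at 108, 39 and 26 counts in vehicle and at 0 in each LLY-283 library. Against a floor of 3 counts per library its level was at least 16.4-fold lower under LLY-283 (edgeR, adjusted p = 0.021; 3.53e-17 to 0.356 over 9 other analyses, of which 7 called it). The same gene moved between 0 and high values among repeats of a single group: the 3 vehicle libraries of day 0 held 14, 0 and 102 counts, and the LLY-283 libraries of day 5 held 69, 0 and 69. Its exons overlap those of BCL9L on the other strand, and whether strand was used in the counting is not given in the sources used here.

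Loosening the threshold to an adjusted p under 0.1, a step added after the values were seen, gave 33 genes, 25 higher and 8 lower. With day as a block, no member of the 26 splicing regulators was called over the 3 days, and their median log2 difference was 0.00. The spliceosome genes named next are thus single genes picked at the looser threshold. PRPF3, of the U4/U6 snRNP, stood at 109.5, 97.7 and 103.7 CPM in vehicle and 128.7, 139.3 and 143.0 CPM under LLY-283, a log2 difference of 0.40 ± 0.059 (SE; edgeR, adjusted p = 0.0806). PRPF38B and PRPF39 had log2 differences of 0.30 and 0.34 at the same adjusted p. ATM, the kinase that signals DNA double-strand breaks, measured 120.4, 119.3 and 123.9 CPM in vehicle and 139.0, 156.7 and 172.0 CPM under LLY-283, a log2 difference of 0.36 (edgeR, adjusted p = 0.0806), although its exons overlap C11orf65 on the other strand. For these 4 genes, as for PRPF4B and CREBZF, all LLY-283 libraries were above all vehicle libraries. Choosing genes by p in these same libraries favours such a separation.

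On the lower side of those 33 genes, TAF15, an RNA-binding protein, measured 160.3, 149.8 and 151.6 CPM in vehicle and 131.1, 120.3 and 102.8 CPM under LLY-283 (log2 difference -0.39, edgeR, adjusted p = 0.0806). IRAK1, a kinase of interleukin-1 receptor signalling, and MYBL2, a transcription factor of cycling cells, were at -0.34 and -0.31. Groups were separate for 30 of the 33 genes, against 8.06% of all genes with LLY-283 above and 10.5% with LLY-283 below. The 33 were chosen by p in these same libraries, which favours separate groups. In the libraries of day 5, which this comparison does not use, 31 of the 33 had the same sign, against 71.5% of all genes tested, and 22 were called in the same direction, where 16.3% of all genes were called higher and 18.3% lower. Exons of 13 overlap another gene on the same strand, and the 33 include members of the GOLGA and NPIP families, whose near-identical copies cannot be told apart with short reads, and readthrough genes.

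**Figure D2:**
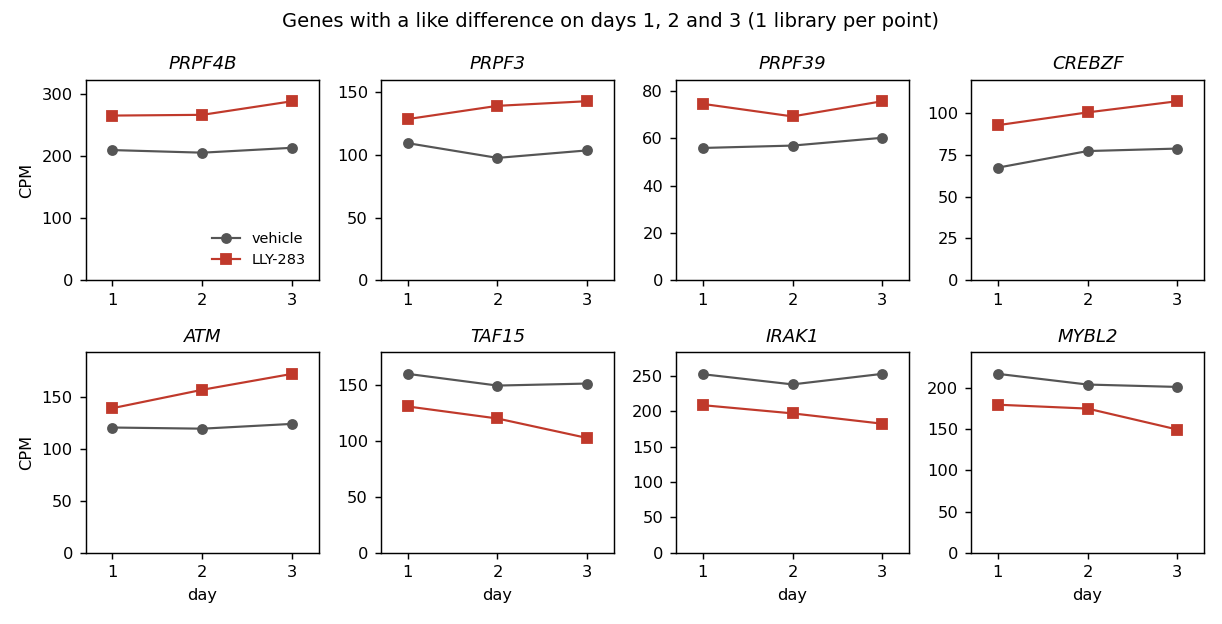
Level in CPM (vertical axes, from 0) on days 1, 2 and 3 (horizontal axes) of 8 genes with an adjusted p under 0.1 over the 3 days, with vehicle in grey circles, LLY-283 in red squares and 1 library per point. PRPF4B runs from 205.8 to 213.7 CPM in vehicle and from 265.7 to 288.9 CPM under LLY-283, so the lines keep apart on every day.

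Day 2 was the first day on which single genes were called. PRPF3 measured 97.7 CPM in vehicle and 139.3 CPM under LLY-283 that day (log2 difference 0.51 ± 0.070, SE; edgeR, adjusted p = 0.00132). Also higher were PRPF4B, PLCG1, a phospholipase of receptor tyrosine kinase signalling, TUBGCP4, of the gamma-tubulin ring, and ZNF518A. PLCG1 stood at 303.0, 301.2 and 304.7 CPM in vehicle and at 318.0, 381.9 and 469.8 CPM under LLY-283, and its difference was larger at day 3 than at day 1 by 0.55 (edgeR, adjusted p = 0.000776). The 3 lower genes were JUND, a subunit of AP-1, and the heat shock genes HSPB1 and HSPA1B. JUND was at 138.3 CPM in vehicle against 101.5 CPM (log2 difference -0.45; edgeR, adjusted p = 0.00296) and was not called at day 3 (-0.16; edgeR, adjusted p = 0.118). All 8 rest on the LLY-283 library that holds the fibroblast traces, and none was called when day 7 was added to the estimate of spread.

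No member of any gene list was called over days 1 to 3 together in the test with day as a block. The average of the 3 days in the model of 18 libraries did call members. Called lower were 18 of 21 DNA replication and 14 of 18 ribosome biogenesis genes. So were 8 of 18 mitosis and 7 of 24 cholesterol synthesis genes. None of these lists had a member called higher, and 13.6% of all genes were called in either direction. Splicing regulators (5 higher, 2 lower) and glial matrix genes (4 and 2) were mixed. List calls below are those of day 3 unless stated, with 1 library per treatment. Genes of DNA replication were lower under LLY-283 as a group. All 21 members of the list were tested: 18 were called lower at day 3 and none higher, against 7.09% lower among all genes. Days 1, 2 and 3 had median log2 differences of -0.13, -0.13 and -0.31, where medians over all genes were -0.02, 0.00 and 0.02. In 20 of 21 the difference was below 0 on each of the 3 days, against 21.7% of all genes (and 20.4% above 0). In 14 every LLY-283 library lay below every vehicle library, against 10.5% of all genes. RRM2, the regulated subunit of ribonucleotide reductase, measured 295.4, 269.8 and 267.5 CPM in vehicle and 268.9, 230.9 and 173.2 CPM under LLY-283. It was not called over the 3 days together (log2 difference -0.33; edgeR, adjusted p = 0.232) but was at day 3 (-0.63 ± 0.065, SE; adjusted p = 2.72e-07). TYMS, which makes thymidylate, was at 229.6, 216.4 and 216.8 CPM against 205.7, 181.4 and 149.6 CPM, with groups apart, and its exons overlap ENOSF1 on the other strand.

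The replicative helicase fell with its loaders. MCM7, a helicase subunit, measured 592.9, 579.5 and 599.2 CPM in vehicle and 537.4, 523.0 and 451.3 CPM under LLY-283 (day 3 log2 difference -0.41; edgeR, adjusted p = 0.00019), and all of MCM2 to MCM7 were called lower at day 3. CDT1, which loads the helicase, was at 75.8, 78.0 and 77.7 CPM against 69.2, 66.6 and 59.6 CPM. UHRF1, which guides maintenance of DNA methylation at the fork, was at 718.1, 744.3 and 774.0 CPM against 695.3, 687.2 and 624.6 CPM. In all 3 genes the groups were separate. PCNA, CCNE1 and E2F1 were below 0 at day 3 without passing the test.

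Mitotic genes moved the same way with smaller differences. Over all genes tested, 7.09% were called lower at day 3, and 10.5% had separate groups with LLY-283 below. Of 18 members, 8 were called lower at day 3 and none higher, the medians were -0.08, -0.09 and -0.22 on days 1, 2 and 3, and in 11 the groups were separate with LLY-283 below. PLK1, a kinase of mitotic entry and spindle assembly, measured 109.6, 114.2 and 119.0 CPM in vehicle and 101.5, 105.7 and 85.9 CPM under LLY-283 (day 3 log2 difference -0.47; edgeR, adjusted p = 3.75e-05). CDC20, an activator of the anaphase-promoting complex, was at 109.5, 106.4 and 107.6 CPM against 99.2, 95.8 and 83.1 CPM. MKI67, CDK1 and AURKB did not pass the test. When the model took in day 7, 2 replication and 2 mitosis members stayed called at day 3.

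To show what promoter sequence these 2 gene groups have in common, the 250 bases before the annotated start were read from RefSeq (GRCh38.p14) for 18 of 21 replication genes (26 windows) and 15 of 18 mitosis genes (17 windows), and searched on both strands. The letters TTTCCCGC, a form of the E2F site, are in 8 of 26 replication windows and 0 of 17 mitosis windows. Among windows of all genes they are in 488 of 35116 (1.39%). A further E2F form, TTTGGCGC, is in 3 of 26, 1 of 17 and 193 of all windows (0.55%). The letters TTTGAA, a form of the CHR element, are in 1 of 26 replication windows, 9 of 17 mitosis windows and 4677 of all windows (13.3%), and CCAAT in 18, 16 and 11240 (32%) of them. A match is a description of the letters, not a binding site, and windows of a gene can overlap. The 5 sequences shown are from members called lower at day 3, written 5′ to 3′ on the gene's strand with the match in capitals; MCM7, CDT1 and UHRF1 hold the E2F letters on the opposite strand, at 187, 35 and 14 bases before the start, and PLK1 and CDC20 hold the CHR letters, at 29 bases and at 178 and 65 bases.
MCM7 promoter, chr7:100101398-100101647, minus strand: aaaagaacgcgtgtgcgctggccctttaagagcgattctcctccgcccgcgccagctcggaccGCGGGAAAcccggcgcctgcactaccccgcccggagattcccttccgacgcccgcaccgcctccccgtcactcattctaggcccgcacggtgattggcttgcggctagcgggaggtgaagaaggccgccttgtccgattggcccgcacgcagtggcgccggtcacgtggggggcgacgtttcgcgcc
CDT1 promoter, chr16:88803539-88803788, plus strand: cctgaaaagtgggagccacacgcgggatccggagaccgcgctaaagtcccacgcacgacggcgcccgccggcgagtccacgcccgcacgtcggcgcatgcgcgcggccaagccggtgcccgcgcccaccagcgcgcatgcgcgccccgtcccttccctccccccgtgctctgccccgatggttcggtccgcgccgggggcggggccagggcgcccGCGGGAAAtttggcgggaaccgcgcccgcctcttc
UHRF1 promoter, chr19:4909251-4909500, plus strand: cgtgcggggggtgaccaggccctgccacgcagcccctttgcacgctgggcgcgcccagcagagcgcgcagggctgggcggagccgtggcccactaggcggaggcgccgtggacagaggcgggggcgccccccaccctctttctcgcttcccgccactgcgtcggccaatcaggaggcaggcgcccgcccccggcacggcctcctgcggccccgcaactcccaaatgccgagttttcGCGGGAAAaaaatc
PLK1 promoter, chr16:23678639-23678888, plus strand: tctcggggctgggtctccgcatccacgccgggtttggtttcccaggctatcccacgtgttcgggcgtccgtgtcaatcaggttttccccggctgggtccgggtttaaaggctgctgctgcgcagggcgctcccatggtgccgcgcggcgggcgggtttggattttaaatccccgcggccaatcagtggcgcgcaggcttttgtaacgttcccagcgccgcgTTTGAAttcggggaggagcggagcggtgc
CDC20 promoter, chr1:43358731-43358980, plus strand: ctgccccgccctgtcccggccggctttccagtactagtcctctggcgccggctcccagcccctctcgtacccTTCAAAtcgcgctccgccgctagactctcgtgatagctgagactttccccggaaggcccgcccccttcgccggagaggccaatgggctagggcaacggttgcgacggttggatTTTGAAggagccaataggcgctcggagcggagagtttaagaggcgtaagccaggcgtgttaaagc

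Most DNA repair genes had small differences. Of 19 members, ATM was called higher at day 3, RAD51AP1, FANCI and POLQ lower, and the list's median was -0.14 at day 3. FANCI, a partner in the Fanconi anaemia complex, measured 239.5, 225.4 and 242.4 CPM in vehicle and 209.8, 201.1 and 189.5 CPM under LLY-283 (day 3 log2 difference -0.35; edgeR, adjusted p = 0.000177). The list had no single direction: 5 members were above 0 and 6 below 0 on each of the 3 days. Among all genes these shares were 20.4% and 21.7%, and 7.04% were called higher and 7.09% lower at day 3.

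The target and its partners were measured next. PRMT5 itself stood at 90.6, 85.6 and 93.6 CPM in vehicle and 88.6, 82.9 and 76.1 CPM under LLY-283. Its difference was -0.12 over the 3 days (edgeR, adjusted p = 0.366) and -0.30 ± 0.069 (SE; adjusted p = 0.00401) at day 3. That was the only one of the 3 days on which it was called, and its exons overlap PRMT5-AS1 on the other strand. At day 5 its difference was -0.12 (edgeR, adjusted p = 0.0324). Over its whole time course the study found no differential expression of PRMT5 by treatment. WDR77, its partner, measured 123.0, 121.8 and 127.1 CPM against 124.1, 106.6 and 91.7 CPM, and RIOK1, an adaptor that brings substrates to the complex, 79.8, 78.5 and 86.1 CPM against 81.2, 80.0 and 64.1 CPM. Both were close to vehicle at day 1 and lower at day 3, with log2 differences of -0.47 and -0.43. The 21 genes of the PRMT5 complex and snRNP assembly had a median of -0.25 at day 3. Of them, 9 were called lower and none higher, against 7.09% and 7.04% of all genes. They include the Sm genes SNRPB, SNRPD1, SNRPD3 and SNRPF and the SMN-complex genes GEMIN4 and GEMIN5. SNRPB was at 382.3, 367.2 and 380.0 CPM in vehicle and 346.2, 341.6 and 326.3 CPM under LLY-283, with the groups apart.

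Other arginine methyltransferases and the methyl donor pathway moved in the same direction. PRMT1, CARM1 and PRMT6 were called lower at day 3 among 7 such genes and none was higher, against 7.09% of all genes called lower. PRMT1, which places most asymmetric dimethylation, measured 351.8, 361.5 and 390.2 CPM in vehicle and 325.3, 332.8 and 308.6 CPM under LLY-283. Of 9 genes of the methionine cycle and polyamine synthesis, 6 were lower at day 3, namely MAT2A, AHCY, MTAP, SRM, AMD1 and ODC1. ODC1, the first enzyme of polyamine synthesis, was at 364.5, 359.9 and 367.3 CPM against 338.5, 310.6 and 231.0 CPM. Its log2 difference at day 3 was -0.67 ± 0.073 (SE; edgeR, adjusted p = 9.61e-07), and its groups were separate.

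Splicing regulators did not share a direction. Among all genes tested, 7.04% were called higher at day 3 and 7.09% lower. Of 26, CLK1, CLK2 and RBM39 were higher at day 3, SRSF1, HNRNPD, HNRNPDL and RBM25 were lower, and the median was -0.06. CLK1, a kinase of SR proteins, measured 29.9, 33.75 and 33.97 CPM in vehicle and 31.3, 39.15 and 44.98 CPM under LLY-283. RBM39, a cofactor of 3′ splice site choice, was at 283.4, 281.0 and 288.8 CPM against 312.2, 322.0 and 337.7 CPM, with the groups apart. Ribosome biogenesis was lower: 14 of 18 members were called lower at day 3 and none higher, the median was -0.29, and 13 were below 0 on each day. GNL3, a nucleolar GTPase, measured 213.5, 205.8 and 225.2 CPM in vehicle and 183.4, 186.4 and 178.4 CPM under LLY-283, with its groups separate, whereas NOP56, of the box C/D particle, was at 459.9, 440.1 and 474.9 CPM against 445.1, 430.7 and 371.3 CPM and differed mainly at day 3.

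Cholesterol synthesis genes were lower under LLY-283 at day 3, while their levels in vehicle were higher at day 3 than at day 1. Between day 1 and day 3 the level in vehicle was higher at day 3 for 21 of 24 members, with a median log2 change of 0.36 on log2(CPM + 0.1), and under LLY-283 for 11 of 24, with a median of -0.01 (all genes: -0.01 and 0.02). At day 3, 10 of 24 were called lower under LLY-283 and none higher, against 7.09% and 7.04% of all genes. The list's medians were 0.04, -0.14 and -0.29 on days 1, 2 and 3. HMGCS1, which makes HMG-CoA, measured 212.7, 251.8 and 305.8 CPM in vehicle and 242.7, 224.4 and 218.5 CPM under LLY-283. It was not called at day 1 (log2 difference 0.19) and was called lower at day 3 (-0.48 ± 0.11, SE; edgeR, adjusted p = 0.0135). ACAT2, a thiolase at the entry of the pathway, was at 69.7, 80.0 and 101.1 CPM against 70.1, 69.0 and 53.1 CPM (day 3 -0.93; adjusted p = 0.00546), although its exons overlap TCP1 and SOD2 on the other strand. NSDHL, of a late step, was at 43.4, 49.6 and 56.5 CPM against 50.9, 41.5 and 38.4 CPM. INSIG1, which also answers to the regulator SREBP2, did not pass the test, and no member was called in the model that took in day 7.

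LXR targets, among them genes that export or bind sterol, went the other way at day 3. Of 9, 6 were called higher and none lower, with medians of -0.07, -0.05 and 0.36 on days 1, 2 and 3. ABCA1, the cholesterol exporter, measured 346.6, 346.4 and 316.8 CPM in vehicle and 330.8, 413.7 and 509.3 CPM under LLY-283, lower than vehicle at day 1 and higher from day 2. SREBF1, the regulator of fatty acid synthesis and an LXR target, was at 138.3, 155.1 and 146.0 CPM against 125.6, 167.2 and 198.2 CPM. Between days 1 and 3 the list's median log2 change was -0.24 in vehicle and 0.41 under LLY-283. Over all genes tested, 7.04% were called higher at day 3 and 7.09% lower. Fatty acid synthesis genes were mixed, with FADS1 and ACLY lower at day 3 among 9 and none higher.

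**Figure D3:**
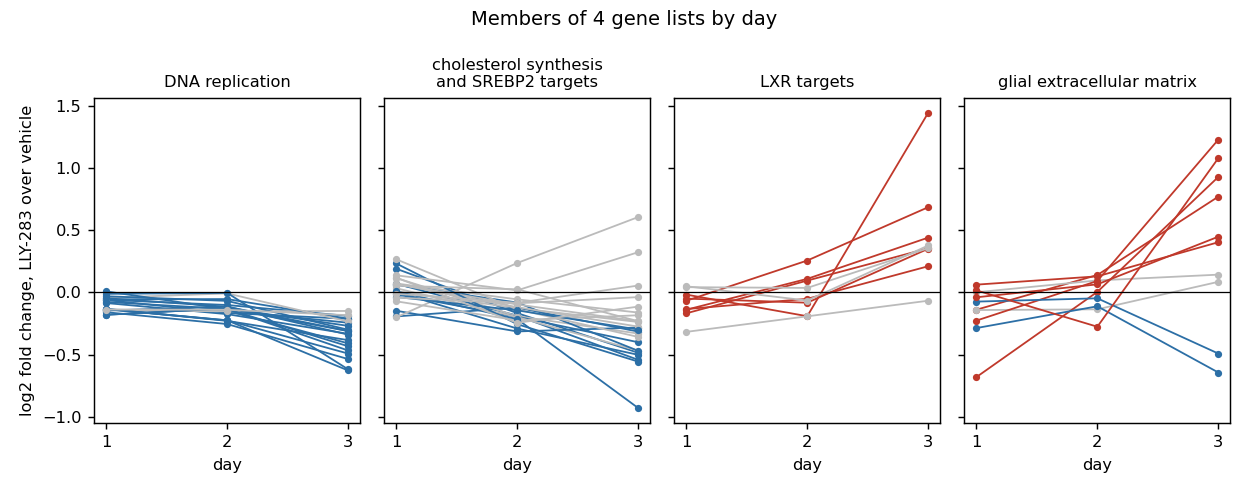
Log2 difference between LLY-283 and vehicle (vertical axis) on days 1, 2 and 3 (horizontal axes) for each member of 4 gene lists (panels), with 1 line per gene. Red lines were called higher at day 3, blue lines lower, and grey lines were not called. Of the replication genes 18 of 21 are blue, and 6 of 9 LXR targets and 6 of 10 matrix genes are red.

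Some glial and matrix genes were higher under LLY-283 at day 3, and no member of these lists was called at day 1 or day 2. Of 16 glial extracellular matrix genes, 10 passed the filter. Of these, 6 were called higher and 2 lower at day 3, against 7.04% and 7.09% of all genes. The list's medians were -0.11, 0.03 and 0.42 on days 1, 2 and 3. TNC, encoding tenascin C, measured 195.5, 224.4 and 200.1 CPM in vehicle and 177.5, 247.2 and 341.1 CPM under LLY-283 (day 3 log2 difference 0.77 ± 0.061, SE; edgeR, adjusted p = 2.1e-09). MATN2, a matrix adaptor protein, was at 12.04, 17.52 and 14.22 CPM against 10.3, 18.7 and 33.3 CPM. Treatments were thus close on the first 2 days and far apart on the third. COL9A3 and COL20A1, both collagens, were the 2 lower ones. COL9A3 was at 30.6, 28.4 and 35.0 CPM in vehicle and 25.1, 26.3 and 22.4 CPM under LLY-283, without overlap. Beside these, the summed fibroblast and neuron markers were higher under LLY-283 at day 3, as given above, and their part in these values was not tested.

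Of 15 astrocyte markers, 11 passed the filter, and AQP4, ALDH1L1, ALDOC and HEPACAM did not. SLC1A3, APOE, CLU, KCNJ10 and SOX9 were called higher at day 3 and none lower, with a median of 0.42. The shares of all genes called were 7.04% higher and 7.09% lower. GFAP and S100B were not called at day 3. S100B was below 0 on each day (-0.14, -0.08 and -0.16) and was called lower in the average of the 3 days. SLC1A3, a glutamate transporter, measured 401.5, 323.7 and 291.0 CPM in vehicle and 404.0, 341.1 and 388.9 CPM under LLY-283. At day 5 it was called in the opposite direction (log2 difference -0.18; edgeR, adjusted p = 0.000608). CLU, which encodes clusterin, was at 211.5, 188.6 and 131.6 CPM against 201.4, 184.1 and 182.6 CPM. For both, the vehicle level was lowest at day 3. APOE was low, at 1.46 to 3.98 CPM over the 6 libraries, and its exons overlap ENSG00000280087 on the same strand. Of 13 oligodendrocyte precursor markers, PDGFRA, PTPRZ1, MEGF11 and SOX6 were higher at day 3 and none was lower. PTPRZ1, a receptor phosphatase abundant in precursors, measured 2610, 2718 and 2753 CPM in vehicle and 2606, 2897 and 3862 CPM under LLY-283. OLIG2 was not called (day 3 -0.13; edgeR, adjusted p = 0.136). It was below 0 on each day and was called lower in the average of the 3 days. Of 5 mature oligodendrocyte markers that passed the filter, CNP was lower and the other 4 were not called. MBP, MOG and MAG did not pass the filter.

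Notch genes held 5 called higher at day 3 (NOTCH1, NOTCH2, NOTCH3, JAG1 and HEY1) and 1 lower (DLL3) among 11. The shares of all genes called that day were 7.04% higher and 7.09% lower. NOTCH1, a receptor, measured 318.9, 329.3 and 309.9 CPM in vehicle and 295.9, 312.0 and 411.6 CPM under LLY-283, and JAG1, a ligand, 160.2, 163.6 and 152.2 CPM against 165.3, 168.9 and 211.0 CPM. HEY1, a target gene, was at 60.95, 42.01 and 27.53 CPM in vehicle and at 63.7, 46.3 and 51.4 CPM under LLY-283.

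**Figure D4:**
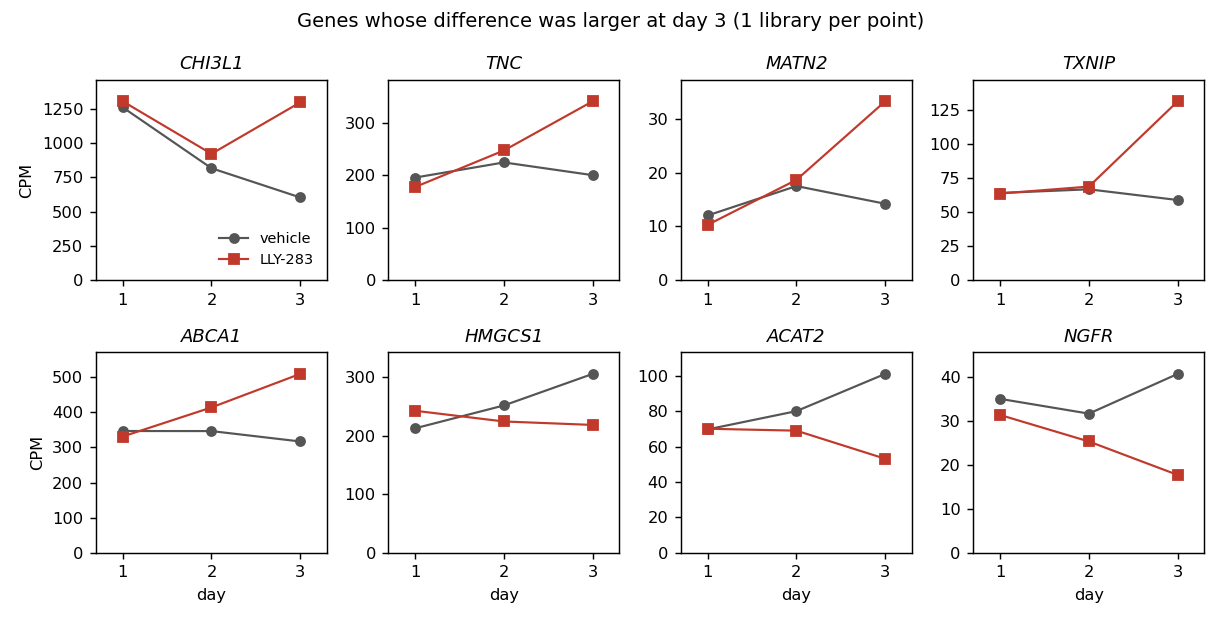
Level in CPM (vertical axes, from 0) on days 1, 2 and 3 (horizontal axes) of 8 genes that differed at day 3, with vehicle in grey circles, LLY-283 in red squares and 1 library per point. CHI3L1 falls in vehicle from 1262 to 603.3 CPM and ends at 1298 CPM under LLY-283, while HMGCS1 rises in vehicle from 212.7 to 305.8 CPM.

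The difference itself changed between day 1 and day 3 for 378 genes (2.19%; edgeR, adjusted p under 0.05), of which 282 (74.6%) moved upward and 96 downward. The upward share was 65.7% with DESeq2 size factors and 56.6% with library size alone, and 1 gene was called when day 7 entered the model. CHI3L1, a secreted glycoprotein of reactive glia, measured 1262, 816.9 and 603.3 CPM in vehicle and 1306, 922.0 and 1298 CPM under LLY-283. Its difference grew by 1.06 ± 0.086 (SE; adjusted p = 1.21e-08). IGFBP5, which binds insulin-like growth factors, was at 73.1, 57.4 and 61.4 CPM against 64.4, 54.4 and 131.4 CPM, and H19, an imprinted non-coding RNA, at 18.6, 40.1 and 32.6 CPM against 14.6, 40.6 and 87.6 CPM. TXNIP, which restrains glucose uptake, was at 64.0, 66.7 and 58.8 CPM against 63.6, 68.7 and 131.4 CPM, and it was also called higher at day 0 by 0.27 (edgeR, adjusted p = 0.0309).

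Of those that moved downward, NGFR, the p75 neurotrophin receptor, measured 35.0, 31.6 and 40.7 CPM in vehicle and 31.3, 25.3 and 17.7 CPM under LLY-283, with the groups separate, and its exons overlap NGFR-AS1 on the other strand. RBM38, an RNA-binding protein, was at 196.3, 154.8 and 143.6 CPM against 199.9, 139.1 and 88.5 CPM, and TRIM58, a ubiquitin ligase, at 141.4, 120.2 and 135.2 CPM against 151.4, 121.1 and 88.8 CPM. All 3 were called lower at day 3, with log2 differences of -1.20, -0.70 and -0.61. Other genes of small p at day 3 included IFI16 (0.64), a DNA sensor, and SCN3A (0.85), a sodium channel, on the higher side and OXCT1 (-0.70), of ketone use, and RRP7A (-0.57), of ribosome assembly, on the lower side.

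Stress and signalling lists were mixed. For scale, 7.04% of all genes tested were called higher at day 3 and 7.09% lower, and some of these lists lie near those shares. Of 13 genes of ATF4 and the unfolded protein response, 7 were lower at day 3 (ATF4, ASNS, PSAT1, PHGDH, HSPA5, HERPUD1 and SLC7A11) and DDIT4 was higher. SLC7A11, the cystine transporter, measured 19.1, 16.7 and 21.9 CPM in vehicle and 16.3, 15.0 and 10.1 CPM under LLY-283, without overlap. FOS, JUNB, EGR1 and EGR2 were higher at day 3 among 18 immediate early genes and none was lower, while 3 members were called lower when the 3 days were averaged. FOS was at 9.02, 11.1 and 9.36 CPM against 8.30, 10.6 and 17.7 CPM. This list was already above 0 at day 0, with a median log2 difference of 0.12 against 0.02 at day 3, and KLF6 was called there, while FOS (0.46) and JUNB (0.19) were not (edgeR, adjusted p = 0.258 and 0.342). IFIT2 and IFI44L were higher among 15 interferon response genes, of which IFIT1 and MX1 were not called. Of 15 genes of BMP signalling, the pathway that ACVR1 belongs to, ID3, SMAD6 and BMPR2 were higher at day 3 and BMPR1A lower. ID3, a direct target, was at 12.7, 14.5 and 14.9 CPM in vehicle and 11.8, 14.3 and 21.9 CPM under LLY-283. At day 5 ID3 was called in the opposite direction (log2 difference -0.65; edgeR, adjusted p = 5.93e-06), and SMAD6 was at -0.27 without passing the test. PHLDA1 and ETV1 were higher and DUSP5 lower among 12 feedback genes of MAPK signalling.

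**Figure D5:**
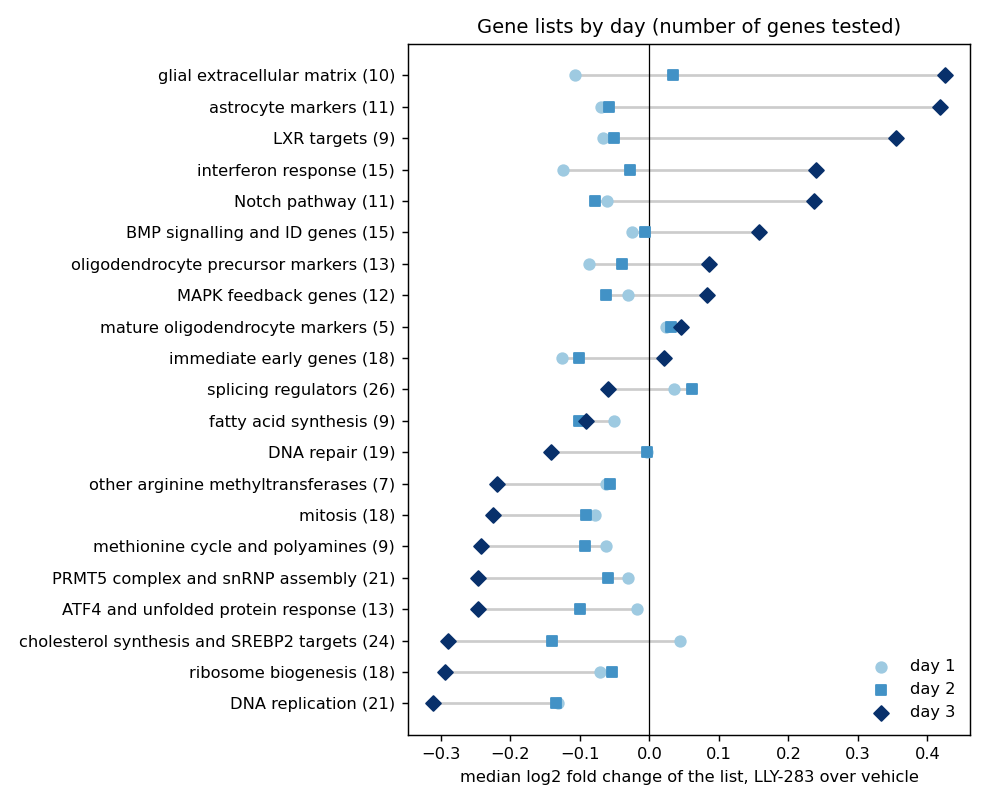
Median log2 difference between LLY-283 and vehicle over the members of each gene list (rows, with the number of genes tested in brackets; horizontal axis, log2), with day 1 as light circles, day 2 as squares, day 3 as dark diamonds and a grey line over their range. DNA replication is below 0 on each day (-0.13, -0.13 and -0.31), while LXR targets, astrocyte markers and glial matrix are below 0 at day 1 (-0.07, -0.07 and -0.11) and reach 0.36, 0.42 and 0.42 at day 3.

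The study names 15 genes for its RNA-sequencing, and since it chose them on libraries of this series their direction is not independent evidence. By day 3, MATN2, APOE, KCNJ10 and ABCG1 were called higher and MDK, NGFR, FSCN1, PDGFB, HMGCS1, ACAT2 and TNFRSF1B lower. EPHB2, FGFR4, PTX3 and DLL1 were not called. By RT-qPCR the study found its sequencing direction again for most of the transcripts it tested, but no change for TNFRSF1B, DLL1 and EPHB2. The shares of all genes called at day 3 were 7.04% higher and 7.09% lower. KCNJ10, a potassium channel of astrocytes, measured 6.44, 5.08 and 7.84 CPM in vehicle and 4.38, 5.95 and 15.1 CPM under LLY-283. PDGFB, a growth factor, was at 99.7, 96.1 and 87.9 CPM against 91.7, 85.2 and 53.9 CPM. On day 1 none of the 15 passed the test.

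The sign of the day 3 calls was then read on the other days, whose differences come from other libraries. Of the 1214 genes higher at day 3, the share above 0 was 57.9% on day 1, 77.1% on day 2 and, among day 5 libraries, 93.2%, where day 0 gave 48.8%. For the 1223 lower genes the share below 0 was 86.6% on day 1 and 88.6% on day 2. It was 96.4% among day 5 libraries and 27.9% at day 0. Most of these lower genes thus shared a sign at day 0 too, above 0, with a median log2 difference of 0.024. Their medians were -0.079 on day 1 and -0.102 on day 2. Whether the shared sign on those days reflects LLY-283 was not tested. The median log2 difference over all genes was 0.00 at day 0, -0.02 on day 1, 0.00 on day 2 and 0.02 at day 5. At day 5, 2812 genes were called higher (16.3% of all genes tested) and 3162 lower (18.3%). Called in the same direction at day 5 were 885 of the 1214 higher genes (72.9%) and 1028 of the 1223 lower ones (84.1%), and these are 31.5% and 32.5% of the day 5 lists. In the opposite direction were 13 and 4. The day 0 and day 5 repeats do enter the estimate of spread behind the day 3 calls.

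Genes higher and lower at day 3 also differed in gene structure, which did not enter the tests as a variable. Any bearing of gene length on the counts, and so on the calls, was not tested. The span of the annotated gene had a median of 67.2 kb for those higher and 19.8 kb for those lower, against 34.8 kb over all genes tested. Higher genes had a median of 16 exonic blocks and lower genes 10, against 11 over all, and total exonic lengths were 7694, 4233 and 5493 bases. Protein-coding genes made up 91.3% of the higher and 97.9% of the lower genes, against 76.9% of all. Mean levels in these libraries had medians of 45.1, 81.1 and 31.8 CPM, so both called groups were more abundant than the genes tested as a whole. These are descriptions over genes, which are not replicates, and carry no test.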

How the data were processed

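RNA of HSJD-DIPG-007 cells given vehicle or LLY-283 was sequenced as polyadenylated RNA. The authors trimmed the paired reads, assigned them to human transcripts of hg38 with kallisto (its version and strand setting are not given in the sources used here) and deposited estimated counts for each gene, which are whole numbers with no scaling for depth. All 24 columns were matched to a library by name. Of 58676 gene identifiers, 58207 were matched to a symbol of GENCODE 44, whose GRCh38 coordinates are given. Gene structure was read from GENCODE, and promoter sequences from RefSeq. Exon overlaps are stated for some named genes only. Exons of others overlap another gene too, among them PLCG1 on the same strand. On the other strand these include FANCI, SLC1A3, RBM38, IFI16, OXCT1, RRP7A and CNP.

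From the deposited counts, LLY-283 was compared with vehicle with edgeR 4.0.16 in R 4.3.3, with TMM scaling and quasi-likelihood tests. Low counts were filtered by treatment over the 6 libraries of days 1 to 3. The 17240 genes kept were used in every main test, with Benjamini-Hochberg adjustment over them and a threshold of 0.05. Days 1 to 3 together used their 6 libraries with day as a block (2 residual degrees of freedom). Single days and the difference between days 3 and 1 came from a model of 18 libraries of days 0, 1, 2, 3 and 5 (8 residual degrees of freedom). The model assumes that a lone library varies like the repeats. Days 0 and 5 were tested in their own 6 libraries. Day 7 entered 1 alternative only, since earlier results placed its repeat 2 libraries nearer the opposite treatment. Day 10 entered none, since the study left it out. The tests were checked on simulated counts. Counts of 0 were set against a floor of 3 counts per library, which covers counting error only.

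The comparison, the gene lists and the genes the study names were chosen with earlier results of these data known. The rule for named genes took those called over days 1 to 3 with the same sign on each day and a mean of at least 1 CPM (the 8 with the smallest p and the 5 with the largest change in each direction), 4 genes in each direction with the smallest p for day 3 minus day 1, up to 4 called members of each list, the genes the study names and PRMT5. It gave 70 genes, to which further list members, the genes of smallest p at days 2 and 3, genes with an adjusted p under 0.1 and the genes whose promoters are shown were added after the values were seen. Alternatives were DESeq2 1.42.0, its size factors, scaling by totals, dropping the filter, a minimum of 10 counts per library, the legacy quasi-likelihood method, 22 libraries, a block for the repeat number, no day block, the average of the 3 days, other thresholds, and leaving out each day or repeat. Same-numbered repeats of days 0 and 5 did not deviate together, which cannot decide whether they shared a culture or a run. A small number of genes and 1 gene list are not reported here.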

Additional observations from a re-analysis of the deposited data

Results flagged for a closer look

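The change in the treatment difference from day 1 to day 3 was tested as an interaction, and 378 genes passed (edgeR, adjusted p under 0.05). Of the 70 genes named by rule, 17 were among them. Genes named after their values were seen passed too, among them TXNIP (1.17), SCN3A (0.66), IFI16 (0.63), SREBF1 (0.58), PLCG1 (0.55), NOTCH1 (0.52) and PTPRZ1 (0.49) upward and ODC1 (-0.56), RRM2 (-0.49) and WDR77 (-0.48) downward. Of the 17, larger at day 3 by the given log2 amount were H19 (1.78), KCNJ10 (1.503), MATN2 (1.46), IGFBP5 (1.28), CHI3L1 (1.06), TNC (0.91), ABCA1 (0.75), ABCG1 (0.52), ETV1 (0.38) and NCAN (0.34). Lower at day 3 than at day 1 were the differences of NGFR (-1.04), BCYRN1 (-0.82), RBM38 (-0.72), TRIM58 (-0.70), PDGFB (-0.59), TNFRSF1B (-0.48) and TYMS (-0.38). BCYRN1, a brain cytoplasmic RNA of which near copies exist elsewhere in the genome, measured 161.9, 167.5 and 169.0 CPM in vehicle and 171.4, 142.6 and 101.0 CPM under LLY-283 on days 1, 2 and 3. Each value compares 4 single libraries, and 1 gene of all those tested passed when the libraries of day 7 entered the estimate of spread. No treatment and day had the 4 libraries that a test for outlying samples needs.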

How the results depend on the processing

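The early comparison rests on few libraries and its counts moved widely. Over days 1 to 3, with 3 genes called, there were 0 without the day block, 23 with DESeq2, 2347 for the average of the 3 days in 18 libraries, 0 at an adjusted p under 0.01 and 33 under 0.1, and leaving out a day gave 15 (day 1) to 906 (day 3), with 290 without day 2. At day 1 (0 called) library size alone gave 1, no filter 4, at least 10 counts 3, the legacy method 4, DESeq2 3, and leaving out a repeat 0 to 5. At day 2 (8 called) the same settings gave 15, 28, 31, 20 and 19, and 22 libraries 0, adjusted p under 0.01 3, and leaving out a repeat 4 to 41 (without vehicle day 0 repeats 2 and 1). At day 3 (2437) 22 libraries gave 373, DESeq2 1434, adjusted p under 0.01 1218, and leaving out a repeat 2262 to 2779. For day 3 minus day 1 (378) these were 1, 205, 151 and 315 to 525. At day 0 (7) no filter gave 13, DESeq2 11, adjusted p under 0.01 2, and leaving out a repeat 1 to 20 (without LLY-283 repeat 1 and vehicle repeat 3). At day 5 (5974) all were within 1.5 times, 4761 to 6053 without a repeat. Apart from the thresholds and the libraries left out, the cause was not tested. A block for the repeat number gave 5 genes at day 2, 2148 at day 3, 305 for day 3 minus day 1, 22 at day 0 and 5867 at day 5, and same-numbered repeats did not deviate together (r from -0.25 to 0.03). No scaling moved the median of all genes by over 0.1.

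No called value of a named gene changed sign under an alternative. At day 3, of the values for named genes under the alternatives, 2635 stayed on their side of the threshold, 145 lost and 23 gained the call. Over days 1 to 3 these were 1273, 8 and 239, and 20 values that were not called changed sign. Lists at day 3 lost most of their calls with 22 libraries, where cholesterol synthesis went from 10 to 0, DNA replication from 18 to 2, ribosome biogenesis from 14 to 5 and LXR targets from 6 to 0. With DESeq2, LXR targets went from 6 to 3, BMP signalling from 4 to 1 and oligodendrocyte precursor markers from 4 to 2, and without the filter cholesterol synthesis went from 10 to 5 and BMP signalling to 2. With library size alone, fatty acid synthesis went from 2 to 4 and MAPK feedback genes from 3 to 6, or to 5 with at least 10 counts.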
